A study of Mus musculus with 10 samples.

Results

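MC38 cells, a mouse colon adenocarcinoma line, were compared, by their labels, with and without a mutant form of syndecan-1 that the labels call ect, in cells in which Sdc1 had been knocked down. The comparison used 4 of the 10 libraries of the study, chosen by their titles: 2 from cells with the Sdc1 knockdown and the ect mutant, and 2 from cells with the Sdc1 knockdown alone (shS in the titles). Beside them, 2 libraries from cells with the knockdown and another mutant, c30, are given for reference. Every one of these groups, the knockdown control included, carried the Sdc1 knockdown and received 10 ng/ml of the cytokine interferon gamma (IFNγ) over 24 h. The labels do not describe the knockdown construct, the way a mutant was put back, its promoter, or whether a line was 1 clone, and they do not say what the ect and c30 forms lack or alter. Unstimulated MC38 cells, MC38 cells with intact Sdc1 expression and vector controls are not analysed here. Transcripts were counted per gene by sequencing of messenger RNA, and all 15031 genes that passed a filter on low counts in the 6 MC38 libraries are described.

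Syndecan-1 is a transmembrane proteoglycan whose outer part carries heparan sulphate chains. These chains bind growth factors, chemokines and matrix proteins, and proteases can cut the outer part from the cell surface. IFNγ acts through the kinases JAK1 and JAK2, and it induces antigen presentation genes, guanylate-binding proteins and immunity-related GTPases in many cell types.

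Sdc1 (ENSMUSG00000020592.16) was measured at 24.5 and 29.9 CPM in the 2 knockdown libraries and at 22.7 and 25.2 CPM in the 2 libraries labelled ect. CPM are counts per 1000000 counts after TMM scaling of library sizes. The ranges of both groups overlapped, and the difference did not pass (log2 fold change of ect minus knockdown -0.17, standard error (SE) 0.10, adjusted p = 0.325 by the quasi-likelihood test of edgeR). The c30 libraries had 96.3 and 100.6 CPM. The Sdc1 count therefore did not show that a re-expressed transcript was present in the libraries labelled ect, and a count per gene cannot separate the cell's own transcripts from those of a mutant form. Directions below refer to the libraries labelled ect.

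Of the 15031 genes tested, 1227 (8.16%) passed at an adjusted p under 0.05. In the libraries labelled ect 534 genes were higher (3.55%) and 693 were lower (4.61%) than in the knockdown. The differences were small. The median absolute log2 fold change was 0.29 among the genes that passed, and a 2-fold difference or more was reached by 24 genes that were higher and by 19 that were lower. In 7308 of all tested genes (48.6%) the 2 libraries labelled ect did not overlap the 2 knockdown libraries, so a lack of overlap is given below only to describe the values. A call depended on the level of the gene, since 0.673% of the genes under 1 CPM passed and 30.9% of those over 500 CPM. Among the 2218 genes between 100 and 500 CPM, 257 were called lower and 175 higher. The median absolute difference of the genes that passed fell in the same order, from 2.33 to 0.18 on the log2 scale. In a fit of all 10 libraries, which takes its spread from both cell lines, 249 genes passed and 65 of them (26.1%) were higher, against 43.5% higher in the fit of the MC38 libraries. DESeq2 called 600 genes. Without ect replicate 2 the number was 776, without ect replicate 1 it was 787, and 0 of the genes named in this comparison changed direction in these fits. Separate cultures are not named in the labels for the 2 samples of a group. The p-values thus rest on the spread between these libraries alone, and that spread may be technical. In bulk RNA, fewer cells of a type and less RNA per cell cannot be told apart.

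**Figure D1:**
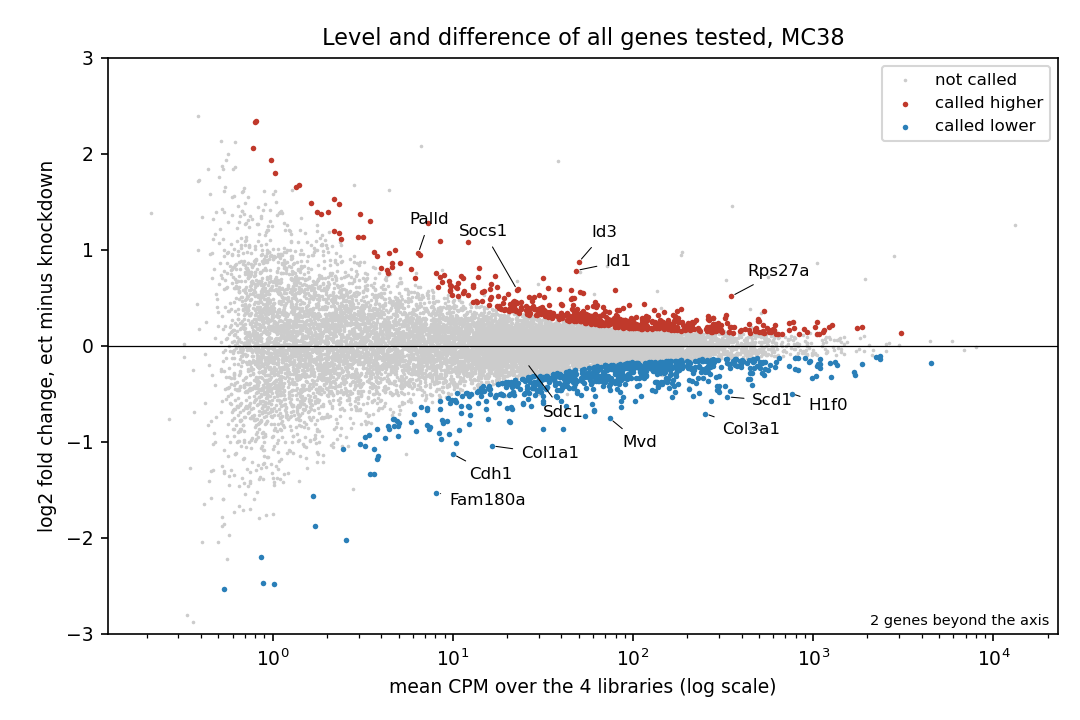
Each point is 1 of the 15031 genes tested. The horizontal axis is the mean level over the 4 libraries in CPM on a log axis, and the vertical axis is the log2 fold change of ect minus knockdown. Coloured points are genes that passed the edgeR test at an adjusted p under 0.05, and named points are genes described in the text. The axis ends at 3 in both directions and 2 genes lie beyond it. Most coloured points lie within 1 log2 unit of 0, and points far from 0 sit at low levels.

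Library totals ranged from 11384847 to 15041133 counts in the 4 libraries, so a count of 0 allows up to 0.199 to 0.264 CPM (3 counts per library, counting error only). A single row without a gene symbol held 0.937% and 0.621% of the counts in the knockdown and 2.38% and 1.31% in the libraries labelled ect. The number of genes called was also 1227 when loci without a symbol and mitochondrially encoded genes were left out. Of these, 1195 were also called with those loci and genes kept. The sum of the leukocyte markers lay between 9.75 and 10.2 CPM, and Cd3e and Cd8a had 0 counts. The epithelial marker list, expected of a carcinoma line, was almost silent: 2 or 3 of its 21 genes reached 1 CPM, and its sum of 19.6 and 20.3 CPM in the knockdown and 13 and 13.3 CPM in the libraries labelled ect came in large part from Cdh1. All 14 mesenchymal genes of the list reached 1 CPM. The summed endothelial and stromal markers, mostly the receptor genes Pdgfra and Pdgfrb, were 145 and 153 CPM in the knockdown and 110.2 and 102.9 CPM in the libraries labelled ect. The part of these marker differences in the results was not tested.

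**Figure D2:**
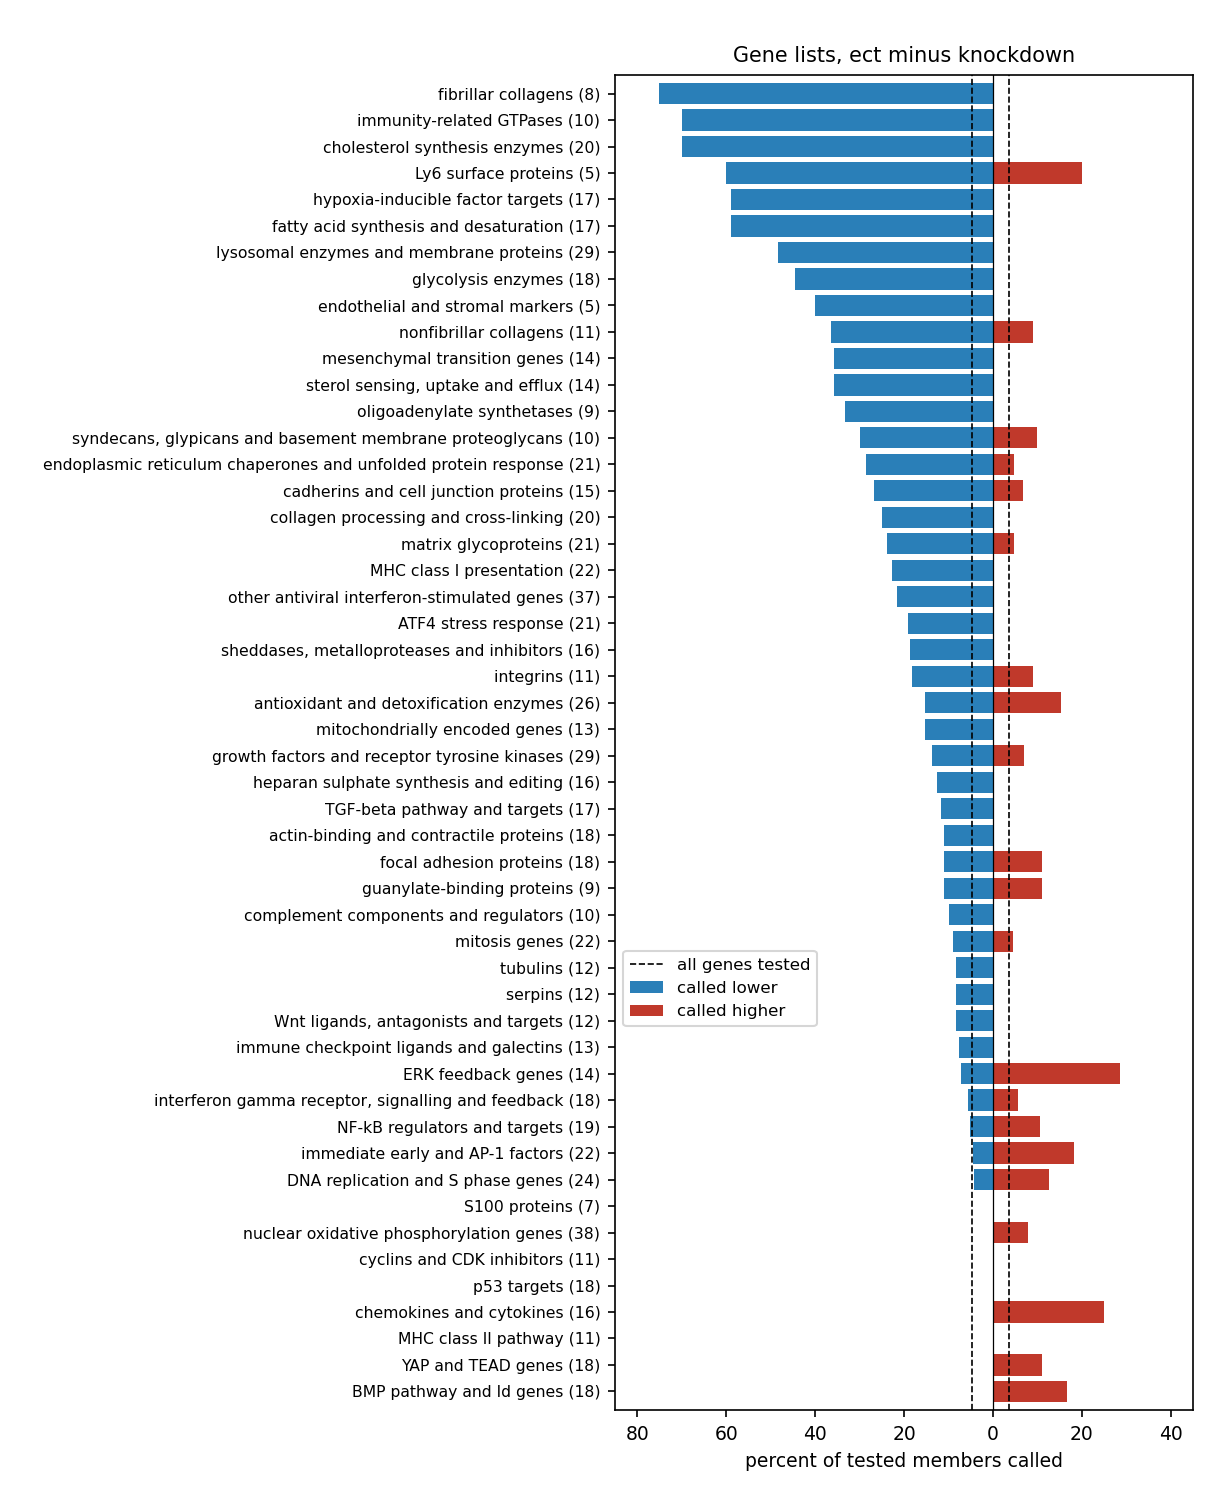
Each row is 1 gene list with at least 5 tested members. Bars to the right give the percent of tested members called higher, and bars to the left the percent called lower in the libraries labelled ect. The dashed lines are the shares over all genes, 3.55% higher and 4.61% lower. The bars for lower genes are longest for fibrillar collagens (6 of 8), immunity-related GTPases (7 of 10) and cholesterol enzymes (14 of 20), and the longest bar for higher genes is that of the ERK feedback genes (4 of 14).

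Most cholesterol synthesis enzymes were lower. All 20 members were tested, all 20 had a negative log2 fold change, and 14 fell and 0 rose, against 4.61% of all genes called lower. Their median log2 fold change was -0.36, and it was 0.00 over all genes tested. In the c30 libraries 12 of the 20 were called lower and 0 higher against the same knockdown libraries (median -0.28). Hmgcs1, whose product makes HMG-CoA, was at 192.7 and 191.9 CPM in the knockdown and at 138.6 and 148 CPM in the libraries labelled ect (log2 fold change -0.42, SE 0.05, edgeR adjusted p = 2.84e-09). Both libraries labelled ect lay below both knockdown libraries.

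Among the mevalonate enzymes Mvd had the largest fall of the list: it went from 85.4 and 101.3 CPM to 54.2 and 56.1 CPM (-0.76, SE 0.07, edgeR adjusted p = 9.37e-14). Fdps, which makes farnesyl pyrophosphate, went from 342 and 338 CPM to 248 and 244 CPM (-0.47, SE 0.05). Fdft1, squalene synthase, and Sqle, squalene epoxidase, fell by 0.42 and 0.37 on the log2 scale. Lss, which makes lanosterol, fell by 0.34. Of the later steps that turn lanosterol into cholesterol, Cyp51 (-0.39) and Nsdhl (-0.52) fell. The members that did not pass were Pmvk, Dhcr7, Tm7sf2, Hsd17b7, Ebp and Sc5d. Except for the mevalonate enzyme Pmvk they act after lanosterol, and they had log2 fold changes from -0.37 to -0.08. Between 13 and 15 members were called when each of the 4 libraries was left out in turn, and 11 in the fit of all 10 libraries.

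Sterol regulatory element binding proteins (SREBPs) are the transcription factors that induce these enzymes when sterols are scarce. The 9 letters TCACNCCAC, which stand for their usual binding sequence, were searched on both strands from 250 bases before to 50 bases after each start in RefSeq (build GRCm38.p6). They were found in 1 of the 15 cholesterol enzymes with such a window, Hmgcs1, and in 1.39% of the 9921 tested genes with one. The stretch of Hmgcs1 at chr13:119690169-119690248 on the + strand is shown with the match in capitals, because it is the 1 enzyme with a match among the 15 searched.
Hmgcs1: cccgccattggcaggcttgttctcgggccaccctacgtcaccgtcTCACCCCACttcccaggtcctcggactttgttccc
The first base of the match lies 137 bases before the annotated start. A match is a description of these letters and not a site, and the absence of the letters from the other windows says nothing of the factor.

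Sterol sensing and uptake genes moved in the same direction in smaller number: 5 of 14 tested members fell and 0 rose (median -0.12). The share of all genes called lower was 4.61%. Insig1, whose product holds the SREBP complex in the endoplasmic reticulum, had 274 and 269.6 CPM in the knockdown and 195.5 and 189.7 CPM in the libraries labelled ect (-0.50, SE 0.05, edgeR adjusted p = 4.28e-13). Stard4, a carrier of cholesterol between membranes, went from 162 and 160.4 CPM to 134.3 and 134.4 CPM (-0.26, SE 0.05). Npc2, the lysosomal cholesterol carrier, fell by 0.23 and Srebf2, which encodes SREBP2, by 0.22 on the log2 scale. Abca1, the exporter of cholesterol, had 75.2 and 85.3 CPM in the knockdown and 89.0 and 92.6 CPM in the libraries labelled ect (0.18, SE 0.06) and did not pass (adjusted p = 0.0594). In the fit of all 10 libraries 2 of the list were called.

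Of 17 genes of fatty acid synthesis and desaturation, 10 fell and 0 rose (median -0.17), against 4.61% of all genes called lower. At 100 to 500 CPM 257 of 2218 genes were called lower, and 40 of 249 over 500 CPM. Among them were 4 desaturases. Scd1, which puts the first double bond into saturated fatty acids, went from 390.3 and 399 CPM to 265 and 280.0 CPM (-0.53, SE 0.05, edgeR adjusted p = 1.96e-15). Its relative Scd2 went from 1400 and 1382 CPM to 1097 and 1127 CPM (-0.32, SE 0.04). The desaturases of polyunsaturated fatty acids, Fads1 (-0.39, SE 0.06) and Fads2 (-0.38, SE 0.05), also fell. Acsl4, which joins long fatty acids to coenzyme A, fell by 0.32. Acss2, which makes acetyl-CoA from acetate, had the largest difference of the list (-0.78, SE 0.18), and without knockdown replicate 1 it did not pass (-0.62, adjusted p = 0.0969). Fasn, the synthase itself, had 536.3 and 600.7 CPM in the knockdown and 532.7 and 527.8 CPM in the libraries labelled ect and did not pass (-0.10, adjusted p = 0.163). Srebf1, the transcription factor of fatty acid genes, did not pass either (-0.13, adjusted p = 0.22). In the fit of all 10 libraries 6 members were called. The c30 libraries had 9 of the 17 called lower and 0 higher against the same knockdown libraries (median -0.16).

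**Figure D3:**
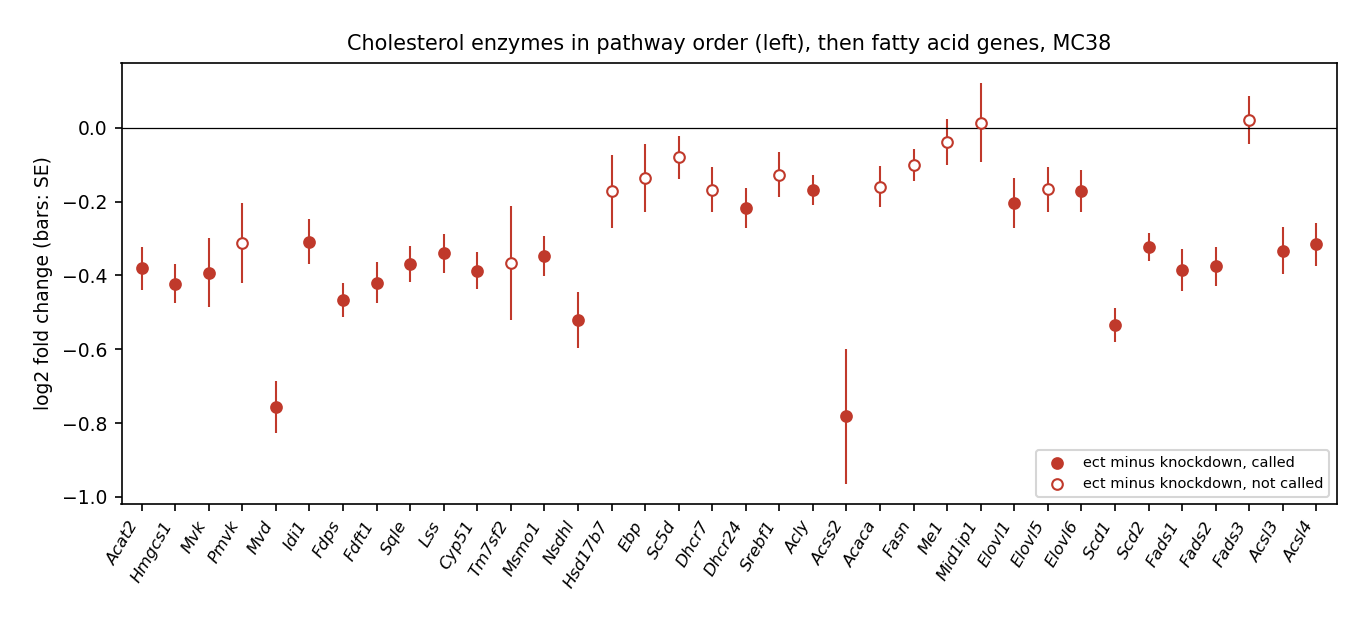
The vertical axis is the log2 fold change of ect minus knockdown, with bars of 1 SE. Along the horizontal axis stand the cholesterol synthesis enzymes in the order of the pathway, then the fatty acid genes. Filled points passed the edgeR test and open points did not. All the cholesterol enzymes drawn lie below 0, with Mvd at -0.76, and Scd1 lies at -0.53 while Fasn lies at -0.10.

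Genes of the lysosome, the acid compartment that degrades proteins, sugars and lipids, were lower as well. Of 32 genes in the list, 29 were tested, 26 had a negative log2 fold change, and 14 fell and 0 rose (median -0.18). Among all genes 4.61% were called lower, and 257 of the 2218 at 100 to 500 CPM. Ctsa, which encodes cathepsin A, was at 153 and 148.5 CPM in the knockdown and at 113.7 and 117.6 CPM in the libraries labelled ect (-0.38, SE 0.06, edgeR adjusted p = 1.95e-07). Grn, the gene of progranulin, went from 312 and 334 CPM to 258 and 256 CPM (-0.33, SE 0.05). The peptidase gene Tpp1 fell by 0.34 and Atp6v0d1, a subunit of the proton pump, by 0.37. The glycosidase gene Hexa (-0.25) and the membrane protein gene Lamp2 (-0.21) were lower. Hexa lost its call without ect replicate 2 (-0.25, adjusted p = 0.0513). Cd63, another membrane protein of late endosomes, had a positive log2 fold change of 0.14 and did not pass (adjusted p = 0.0516). The count of the list depended on single libraries: 8 members were called without knockdown replicate 1 and 8 without ect replicate 2, and 5 in the fit of all 10 libraries.

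Against the same 2 knockdown libraries, the c30 libraries had 3 lysosomal members called lower and 0 called higher, with a median of -0.12. In that comparison 7.75% of all genes were called, 3.3% higher and 4.45% lower. Between ect and c30 directly, 2 of the 29 were lower in the libraries labelled ect, Ctsa (-0.29, SE 0.06, edgeR adjusted p = 0.00168) and Grn (-0.20, SE 0.05, adjusted p = 0.0215), against 0.133% of all genes called lower there. Ctsa was at 138.4 and 145.3 CPM in the c30 libraries, between the other groups. Without c30 replicate 2 the direct test of Ctsa gave -0.26 (adjusted p = 0.192). Grn lost its call without any 1 of the 4 libraries, with adjusted p-values of 0.12 without ect replicate 1, 0.163 without ect replicate 2, 0.191 without c30 replicate 1 and 0.507 without c30 replicate 2.

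**Figure D4:**
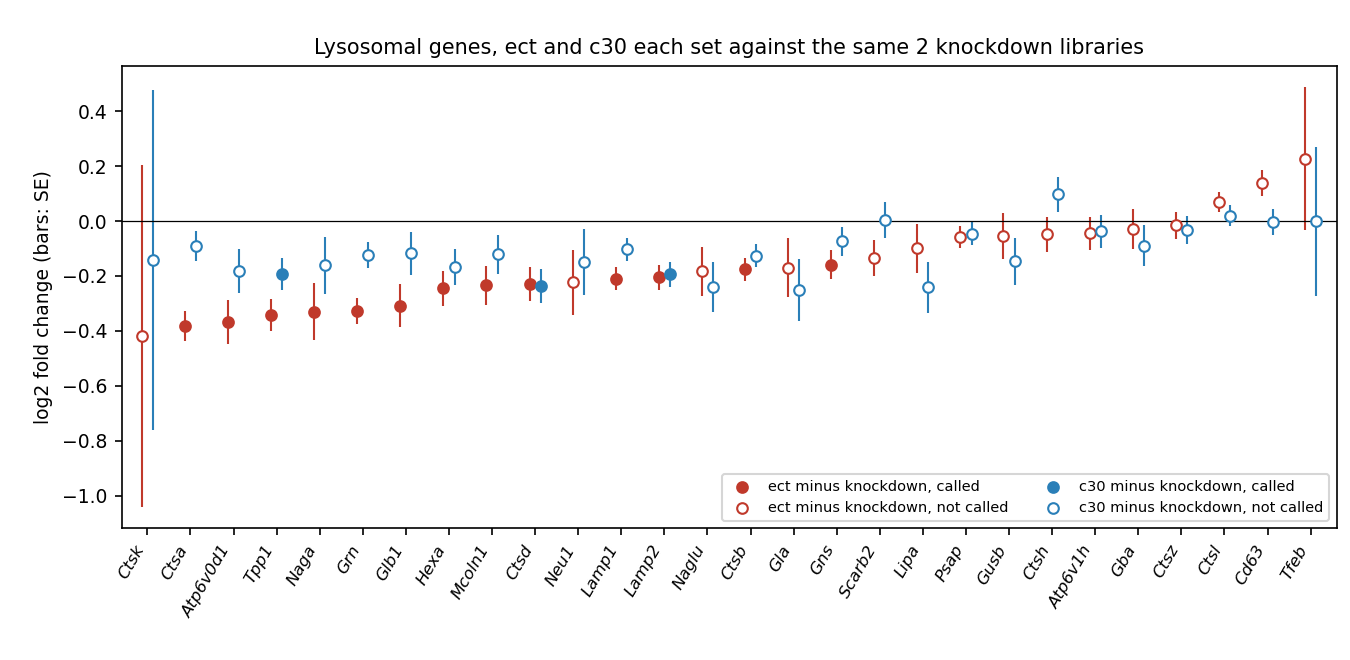
The vertical axis is the log2 fold change, with bars of 1 SE, and lysosomal genes stand along the horizontal axis. Red points are ect minus knockdown and blue points c30 minus knockdown, which share the 2 knockdown libraries; filled points passed the edgeR test. Most red points lie below 0. For Ctsa the point of ect lies at -0.38 and that of c30 at -0.09.

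TFEB and related factors of lysosomal genes bind the letters TCACGTGA. This sequence, which reads the same on both strands, was found in 5 of the 22 tested lysosomal genes with a RefSeq window, Ctsa, Ctsd, Gla, Atp6v0d1 and Mcoln1, and in 2.2% of the 9921 tested genes. Of the 10 members with a window that were called lower, 4 held it. The stretches of Ctsa (chr2:164833693-164833772, + strand), Ctsd (chr7:142387892-142387971, - strand) and Mcoln1 (chr8:3500428-3500507, + strand; all GRCm38.p6) are shown as called members with a match wholly before the start, which is in capitals. Ctsa holds a further match after the start, beyond the stretch shown.
Ctsa: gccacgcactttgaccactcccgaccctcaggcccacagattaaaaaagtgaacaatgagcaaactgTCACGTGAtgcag
Ctsd: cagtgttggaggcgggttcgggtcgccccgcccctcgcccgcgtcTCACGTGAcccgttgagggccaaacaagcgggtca
Mcoln1: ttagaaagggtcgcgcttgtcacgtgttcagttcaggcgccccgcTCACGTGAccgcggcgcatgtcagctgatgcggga
The first base of the match lay 13 bases before the start in Ctsa, 99 in Ctsd and 46 in Mcoln1. Ctsd, cathepsin D (-0.23, adjusted p = 0.00734), and Mcoln1, a calcium channel of the lysosome (-0.23, adjusted p = 0.0229), were weaker calls. Ctsd lost its call without knockdown replicate 1 (-0.21, adjusted p = 0.0618) and without ect replicate 2 (-0.23, 0.0825). Mcoln1 lost it without knockdown replicate 1 (-0.24, 0.0751), knockdown replicate 2 (-0.23, 0.0953) and ect replicate 2 (-0.17, 0.313).

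Targets of the hypoxia-inducible factor (HIF), which adapts cells to low oxygen, were lower. Of 20 genes 17 were tested, all 17 had a negative log2 fold change, and 10 fell and 0 rose (median -0.34). Among all genes 4.61% were called lower. Ndrg1, a stress-induced gene, went from 125 and 121 CPM to 85.2 and 80.5 CPM (-0.57, SE 0.06, edgeR adjusted p = 8.71e-12). Vegfa, the main growth factor of blood vessels, went from 122 and 125 CPM to 94.9 and 91.0 CPM (-0.41, SE 0.06). Bnip3, a receptor for the removal of mitochondria, went from 16.7 and 14.7 CPM to 8.10 and 9.64 CPM (-0.81, SE 0.16). The kinase gene Pdk1 (-0.35), the demethylase gene Kdm3a (-0.34) and the prolyl hydroxylase gene P4ha1 (-0.32) also fell. Car9, a surface carbonic anhydrase, did not pass (-0.57, adjusted p = 0.39). In the fit of all 10 libraries 6 of the list were called. The c30 libraries had 8 of the 17 called lower and 0 higher against the same knockdown libraries (median -0.26).

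Among 18 glycolysis genes, 8 fell and 0 rose (median -0.11), each by little. Over all genes 4.61% were called lower. Of the 249 genes over 500 CPM, the level of Tpi1 and Ldha, 40 were called lower. Tpi1, triosephosphate isomerase, went from 686 and 638 CPM to 579 and 557 CPM (-0.22, SE 0.04, edgeR adjusted p = 7.66e-05). Ldha, lactate dehydrogenase, went from 1359 and 1279 CPM to 1149 and 1172 CPM (-0.18, SE 0.04). The hexokinase gene Hk2 (0.04) and Pgk1 (-0.08) did not pass. The list was sensitive to the fit: 4 members were called without ect replicate 2, and 0 in the fit of all 10 libraries. Gapdh was uneven within the knockdown, at 223.4 and 27.6 CPM, against 261.8 and 234.7 CPM in the libraries labelled ect, and did not pass (0.98, adjusted p = 0.73).

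Fibrillar collagens, the rope-like proteins of connective tissue, were lower with the largest median of the matrix lists. Of 11 genes 8 were tested, 6 fell and 0 rose, and the median log2 fold change was -0.51. Among all genes 4.61% were called lower. Col3a1 was at 307 and 316 CPM in the knockdown and at 190.8 and 190.4 CPM in the libraries labelled ect (-0.71, SE 0.05, edgeR adjusted p = 1.8e-20), the smallest p of all genes lower. Col1a2 went from 250.7 and 254.5 CPM to 173.5 and 176.5 CPM (-0.53, SE 0.05). Col1a1, which encodes the other chain of type I collagen, went from 21.5 and 22.7 CPM to 11.7 and 9.84 CPM (-1.04, SE 0.14). Col5a1 fell by 0.48 and Col5a2 by 0.37 on the log2 scale. The falls stood beside lower sums of the stromal marker list given above, whose called members were Pdgfra (-0.57, SE 0.09) and Pdgfrb (-0.46, SE 0.07). These encode receptors of platelet-derived growth factor, and their part in the collagen result was not tested. Pecam1, the endothelial marker, had 34 and 29 counts in the knockdown libraries and 26 and 46 counts in the libraries labelled ect.

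Against the same knockdown libraries, c30 had 4 of the 8 fibrillar collagens called lower and 0 higher (median -0.44). Col1a1 differed between the libraries labelled ect and c30. In the c30 libraries it was at 17.5 and 20.6 CPM, and c30 minus knockdown did not pass (-0.21, edgeR adjusted p = 0.365), whereas ect minus c30 was -0.83 (SE 0.14, adjusted p = 0.000181). Without c30 replicate 2 the direct difference was -0.71 and did not pass (adjusted p = 0.0943). Col3a1 was at 188.2 and 185.5 CPM in the c30 libraries and ect minus c30 was 0.03 (SE 0.05, adjusted p = 0.933). Col1a2 had 0.16 (SE 0.05) and did not pass in the direct comparison (adjusted p = 0.225).

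Other matrix genes changed in smaller shares. Of 11 nonfibrillar collagens 4 fell and 1 rose, of 20 collagen-processing genes 5 fell, and of 21 matrix glycoproteins 5 fell and 1 rose. The shares over all genes were 4.61% lower and 3.55% higher. Col6a1 and Col6a2, chains of the beaded collagen VI, fell by 0.35 and 0.33. Col18a1, the collagen of basement membranes that carries heparan sulphate, was the member that rose, from 42.1 and 43.2 CPM to 55.4 and 55.9 CPM (0.38, SE 0.08, edgeR adjusted p = 0.000529). Serpinh1, the collagen chaperone, went from 564.8 and 575.3 CPM to 479 and 456.4 CPM (-0.29, SE 0.04). The lysyl hydroxylase gene Plod2 fell by 0.38. Tgfbi, a matrix protein induced by TGF-beta, fell from 311 and 335 CPM to 218.9 and 215.5 CPM (-0.57, SE 0.05). Tnr, tenascin-R, went from 14.3 and 13.6 CPM to 8.19 and 7.05 CPM (-0.88, SE 0.17). Fibronectin, Fn1, did not pass (-0.13, adjusted p = 0.15). Without knockdown replicate 2, or without ect replicate 2, 2 nonfibrillar collagens were called lower.

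The enzymes that cut matrix and surface proteins, listed with their inhibitors, showed 3 falls among 16 tested members and 0 rises (median -0.02). Among all genes 4.61% were called lower. Mmp2, gelatinase A, went from 507.6 and 540.1 CPM to 395.8 and 393.3 CPM (-0.41, SE 0.04, edgeR adjusted p = 8.97e-12). Mmp14, the membrane protease that activates it, went from 149 and 167 CPM to 116.7 and 116.8 CPM (-0.44, SE 0.06). The remaining call was the inhibitor gene Timp3, which did not pass with DESeq2 (-0.17, adjusted p = 0.0707). Adam17, a protease that sheds surface proteins, did not pass (0.08, adjusted p = 0.45).

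Heparan sulphate proteoglycans did not move as 1 group. The shares over all genes, beside the counts below, were 4.61% lower and 3.55% higher. Of 10 tested, Sdc1 included, 3 fell, Gpc1, Sdc2 and Tgfbr3, and 1 rose, Agrn, whose call was lost without any 1 of the 4 libraries. Tgfbr3, a coreceptor of TGF-beta (-0.35, edgeR adjusted p = 0.0157), lost its call without knockdown replicate 2 (0.0976), ect replicate 1 (0.0742) and ect replicate 2 (0.0999). Of the list, 1 member was called lower without knockdown replicate 2 and 1 without ect replicate 1. Gpc1, the glypican anchored by lipid to the outer membrane, went from 148 and 159 CPM to 109.7 and 111.9 CPM (-0.47, SE 0.06, edgeR adjusted p = 4.42e-10), and it was called in every setting tried. Sdc2 was lower in both libraries labelled ect, at 48.5 and 56.3 CPM against 61.5 and 69.5 CPM (-0.31, adjusted p = 0.00377). Its call was lost without knockdown replicate 2 (-0.23, adjusted p = 0.172) and without ect replicate 1 (-0.22, adjusted p = 0.149). Sdc4 (-0.13, adjusted p = 0.19) and Sdc3 (0.13, adjusted p = 0.8) did not pass. Of 16 enzymes that make or edit heparan sulphate 2 were called lower, Hpse, the heparanase (-0.66, adjusted p = 0.0155), and Sulf2, a sulphatase (-0.28, adjusted p = 0.0243). Hpse lost its call without knockdown replicate 1 (-0.69, 0.0618), knockdown replicate 2 (-0.64, 0.104) and ect replicate 2 (-0.54, 0.211). Sulf2 lost it without knockdown replicate 2 (-0.25, 0.177), ect replicate 1 (-0.27, 0.112) and ect replicate 2 (-0.29, 0.091). The chain polymerase gene Ext1 (-0.16) and the sulphotransferase gene Ndst1 (-0.11) did not pass.

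Of the genes that rose, Id1, Id2 and Id3 encode inhibitors of helix-loop-helix transcription factors and are induced by bone morphogenetic proteins (BMPs). Id3 was at 33.7 and 37.1 CPM in the knockdown and at 61.8 and 67.2 CPM in the libraries labelled ect (0.87, SE 0.08, edgeR adjusted p = 1.38e-13). Id1 went from 36.0 and 35.1 CPM to 57.6 and 64.2 CPM (0.78, SE 0.08). Id2 had 12.5 and 11.6 CPM against 16.6 and 19.1 CPM (0.57, SE 0.14, adjusted p = 0.0031). Id2 lost its call without knockdown replicate 2 (0.52, adjusted p = 0.0526) and without ect replicate 2 (0.45, adjusted p = 0.134). The Id genes were the 3 called of 18 tested BMP pathway genes, of which 0 fell (median 0.15), against 3.55% of all genes called higher. Smad7, an inhibitory Smad, was at 21.4 and 22.4 CPM in the knockdown and at 26.8 and 28.1 CPM in the libraries labelled ect and did not pass (0.33, adjusted p = 0.0507). Smad6 (0.70, adjusted p = 0.152) and Hey1 (0.71, adjusted p = 0.24) had positive differences at low levels and did not pass. The receptor genes Bmpr1a (-0.08) and Acvr1 (-0.12) did not pass. Of 17 TGF-beta pathway genes 2 fell, Tgfbi and the receptor gene Tgfbr2 (-0.36, SE 0.06).

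Feedback genes of the ERK kinase pathway were higher in 4 of 14 tested members and lower in 1 (median 0.16). Among all genes 3.55% were called higher and 4.61% lower. Ier3, an early response gene, went from 65.4 and 61.9 CPM to 93.4 and 96.4 CPM (0.58, SE 0.06, edgeR adjusted p = 2.06e-11). Dusp5, a nuclear phosphatase of ERK, went from 12.7 and 12.6 CPM to 20.4 and 19.1 CPM (0.64, SE 0.13). Dusp6, the cytoplasmic one, went from 60.5 and 61.9 CPM to 76.0 and 80.7 CPM (0.36, SE 0.07). These 3 genes were called in every setting. Dusp4 went the other way (-0.23, adjusted p = 0.00388), and it lost its call without ect replicate 1 (-0.17, adjusted p = 0.181). The Sprouty genes Spry2 (0.18) and Spry4 (0.18) did not pass. In the c30 libraries 6 of the 14 were called higher and 1 lower against the same knockdown libraries (median 0.12).

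Growth factors and receptor kinases moved in both directions, with 2 higher and 4 lower of 29 tested. Among all genes 3.55% were called higher and 4.61% lower. Hbegf, a heparin-binding ligand of the EGF receptor, went from 32.0 and 29.7 CPM to 50.02 and 43.4 CPM (0.59, SE 0.09, edgeR adjusted p = 2.21e-06). Epha2, an ephrin receptor, went from 275 and 307 CPM to 353 and 358 CPM (0.29, SE 0.05). Erbb3, a receptor of neuregulins, went from 11.3 and 10.7 CPM to 5.07 and 6.52 CPM (-0.91, SE 0.19). The other receptors called lower were Pdgfra, Pdgfrb and the collagen receptor gene Ddr2 (-0.13, adjusted p = 0.0476). Ddr2 did not pass without knockdown replicate 2 (-0.11, 0.131), ect replicate 1 (-0.15, 0.117) or ect replicate 2 (-0.11, 0.287). Of 22 immediate early factors 4 were called higher and 1 lower. The member that fell was Klf4, from 376 and 369 CPM to 266 and 289 CPM (-0.43, SE 0.05, edgeR adjusted p = 2.78e-11). The 4 higher members were Srf, Ier5, Myc and Jun, with log2 fold changes from 0.18 to 0.34, and 0 of them were called without knockdown replicate 1, without ect replicate 2 or in the fit of all 10 libraries. The YAP target Ccn1, a matrix-bound signalling protein, rose by 0.25 on the log2 scale (edgeR adjusted p = 0.000314).

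**Figure D5:**
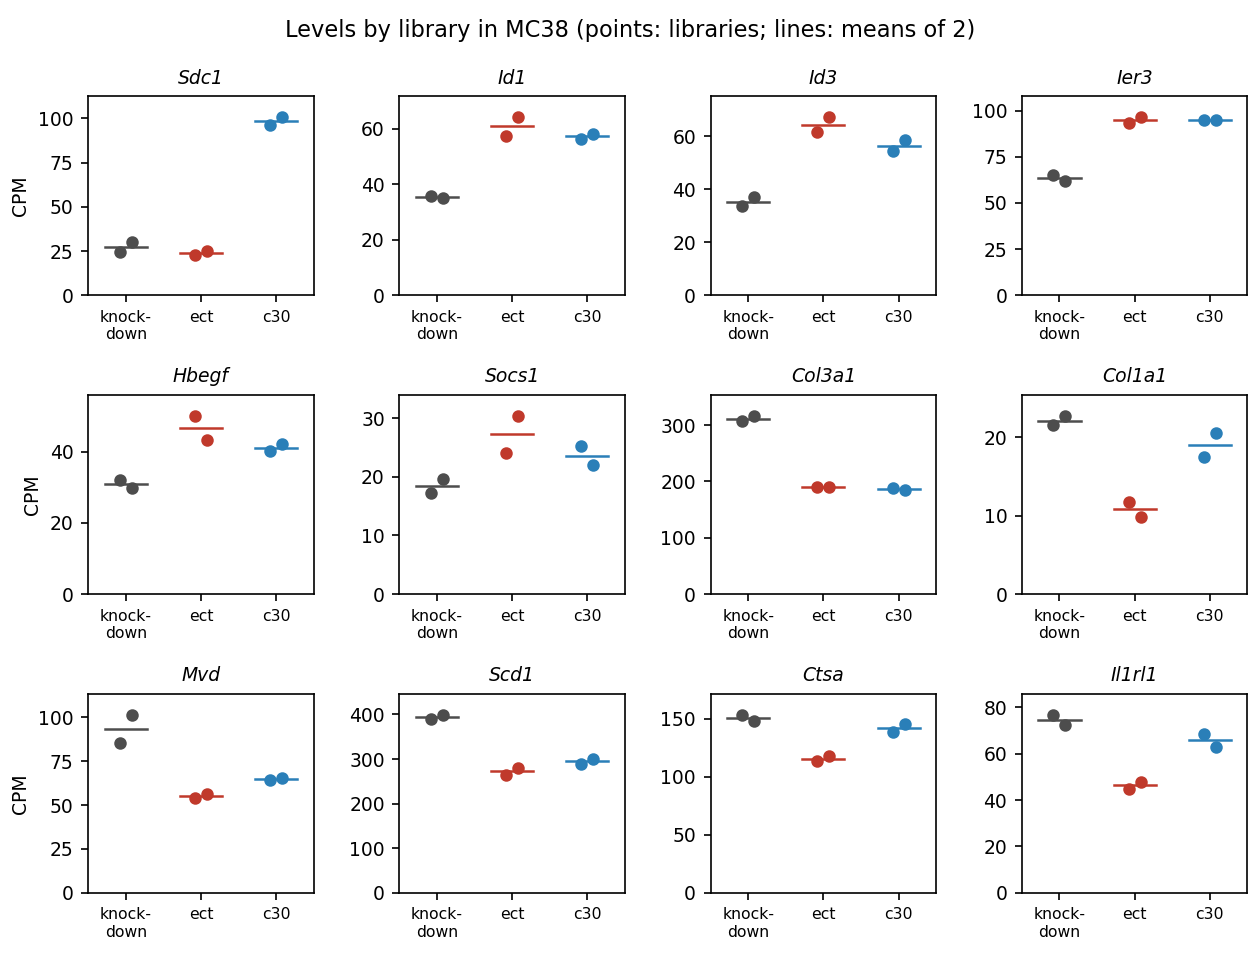
Levels of 12 genes in CPM (vertical axes, each from 0) in the 2 knockdown, 2 ect and 2 c30 libraries (points), with lines at the means of 2. Sdc1 is high in the c30 libraries alone, at 96.3 and 100.6 CPM. Id1, Id3, Ier3 and Hbegf are higher and Col3a1, Mvd and Scd1 lower in the libraries of both labels than in the knockdown, while Col1a1, Ctsa and Il1rl1 are lowest in the libraries labelled ect.

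IFNγ signalling genes were called at a share near that of all genes, 11.1% against 8.16%. Of 18 receptor, kinase, transcription factor and feedback genes, 1 rose and 1, Stat2, fell (median -0.09). Stat2 lost its call without knockdown replicate 2, without ect replicate 1 and without ect replicate 2. Ifngr1 (-0.13, edgeR adjusted p = 0.438), Jak1 (-0.09, 0.313) and Irf1 (-0.08, 0.27) did not pass. Jak1 was at 269.2 and 285.3 CPM in the knockdown and at 254.9 and 267.1 CPM in the libraries labelled ect. The member that rose was Socs1, the feedback inhibitor of JAK kinases, at 17.3 and 19.5 CPM against 24.1 and 30.3 CPM (0.58, SE 0.12, edgeR adjusted p = 0.000348). Without ect replicate 2 its log2 fold change was 0.39 and did not pass (adjusted p = 0.122).

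Immunity-related GTPases, which attack the vacuoles of intracellular pathogens, were lower. Of 10 members 7 fell and 0 rose (median -0.21), against 4.61% of all genes called lower. Igtp was at 583 and 592 CPM in the knockdown and at 478 and 472 CPM in the libraries labelled ect (-0.31, SE 0.04, edgeR adjusted p = 4.55e-08). Tgtp1 went from 514.8 and 489.7 CPM to 424.5 and 402.9 CPM (-0.28, SE 0.04), and its near-identical neighbour Tgtp2 from 398.6 and 408.6 CPM to 356 and 342 CPM (-0.21, SE 0.05). Reads that fit both copies could be split between them, so that the 2 values are not separate evidence. Irgm2 fell by 0.17, and Irgm1, the most counted member, did not pass (-0.07, adjusted p = 0.284). In the fit of all 10 libraries 2 members were called. Against the same knockdown libraries, 9 of the 10 were lower in the c30 libraries.

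Interferon regulatory factors bind GAAA, any 2 bases and GAAA again. These letters were found on either strand in 5 of the 6 members with a RefSeq window and in 3.71% of all tested genes with one. The 4 members that hold them and were called lower are shown, with the match in capitals, for Igtp (chr11:58199476-58199555, + strand), Irgm2 (chr11:58214868-58214947, + strand), Tgtp1 (chr11:48992289-48992368, - strand) and Tgtp2 (chr11:49064248-49064327, - strand), all in GRCm38.p6.
Igtp: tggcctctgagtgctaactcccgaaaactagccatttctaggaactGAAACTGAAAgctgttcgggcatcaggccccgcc
Irgm2: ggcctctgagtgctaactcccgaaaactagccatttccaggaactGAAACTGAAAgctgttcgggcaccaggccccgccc
Tgtp1: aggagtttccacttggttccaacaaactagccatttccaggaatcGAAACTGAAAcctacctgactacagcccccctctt
Tgtp2: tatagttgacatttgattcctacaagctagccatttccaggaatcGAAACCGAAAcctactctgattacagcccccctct
The first base of the match, in the direction of the gene, lay 34 bases before the start in Igtp, 64 in Irgm2, 77 in Tgtp1 and 70 in Tgtp2. Guanylate-binding proteins, the related GTPases, held the GAAA pair in 4 of 4 windows and were not lower as a group: of 9 tested, 1 rose and 1 fell (median 0.02). Gbp2, the most counted of them, was at 845 and 810.5 CPM against 829.9 and 845 CPM (0.02, adjusted p = 0.866). Gbp4 rose from 88.4 and 88.0 CPM to 111.1 and 104.3 CPM (0.29, SE 0.06, edgeR adjusted p = 0.000421).

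Antiviral genes that type I interferon also induces were lower in part. Of 9 genes of the oligoadenylate synthetases and RNase L, 3 fell (median -0.34), and of 4 Ifit genes 2 fell (median -0.64). Of 37 other antiviral genes 8 fell (median -0.11), with 0 rises in these lists. The share of all genes called lower was 4.61%. Oas3, which makes the activator of RNase L, went from 37.0 and 38.6 CPM to 27.2 and 27.9 CPM (-0.45, SE 0.10, edgeR adjusted p = 0.00106). Ifit3 went from 13.5 and 11.6 CPM to 6.85 and 6.38 CPM (-0.93, SE 0.18). Samhd1, which removes nucleotides that viruses need, went from 479 and 482 CPM to 409.7 and 407 CPM (-0.23, SE 0.04). The partners Dtx3l (-0.32) and Parp9 (-0.28), a ubiquitin ligase and its ADP-ribosyl transferase, both fell, and so did Uba7 (-0.30), the activating enzyme for ISG15. In the c30 libraries Ifit3 was at 5.07 and 4.49 CPM and Oas3 at 24.1 and 21.9 CPM, and ect minus c30 did not pass for either (0.46, adjusted p = 0.512, and 0.26, adjusted p = 0.431). Ifit2 lost its call without knockdown replicate 2 (-0.29, adjusted p = 0.0577) and without ect replicate 1 (-0.23, adjusted p = 0.156), which left 1 Ifit gene called. The count of oligoadenylate synthetase genes was 1 without ect replicate 2, and 4 of the other antiviral genes were called in the fit of all 10 libraries.

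Of 22 genes of antigen presentation by MHC class I, 5 fell and 0 rose (median -0.08), 4 of them for the transport and loading of peptides (Tap1, Tapbp, Calr and Pdia3). Over all genes 4.61% were called lower, and 257 of 2218 at 100 to 500 CPM, the level of many genes of the list. Without ect replicate 1 Pdia3 did not pass (-0.13, adjusted p = 0.119). Tap1, a subunit of the peptide transporter, went from 263 and 297 CPM to 232 and 239 CPM (-0.25, SE 0.05, edgeR adjusted p = 0.000222). Tapbp, tapasin, went from 530.7 and 540.6 CPM to 461 and 460.3 CPM (-0.22, SE 0.04). H2-T23, a nonclassical class I gene, went from 64.7 and 68.4 CPM to 51.4 and 49.5 CPM (-0.40, SE 0.08). The classical heavy chain genes H2-K1 (-0.03, adjusted p = 0.71) and H2-D1 (-0.04, adjusted p = 0.582) and B2m (-0.08, adjusted p = 0.264) did not pass. In the fit of all 10 libraries 1 member was called. Of 11 class II pathway genes 0 were called, and Ciita, their coactivator, had 18.0 and 17.7 CPM against 18.4 and 17.4 CPM. Cd274, the gene of the checkpoint ligand PD-L1, was higher in both libraries labelled ect, at 28.2 and 27.9 CPM against 22.7 and 23.6 CPM, and did not pass (0.28, SE 0.11, adjusted p = 0.115).

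Of 16 chemokine and cytokine genes, 4 rose and 0 fell (median 0.16), and of these 4 Csf1 alone kept its call when each library was left out. Among all genes 3.55% were called higher. Csf1, the growth factor of macrophages, went from 400.4 and 405 CPM to 479 and 465 CPM (0.23, SE 0.04, edgeR adjusted p = 7.4e-05). Ccl2, which attracts monocytes, went from 92.5 and 94.1 CPM to 115.3 and 105.4 CPM (0.24, adjusted p = 0.00379), and without ect replicate 1 it did not pass (0.17, adjusted p = 0.198). Cxcl1 and Ccl5 rose at low levels, Ccl5 by 2.06 on the log2 scale. Cxcl1 lost its call without knockdown replicate 1 (0.89, 0.125), knockdown replicate 2 (1.07, 0.0573) and ect replicate 2 (0.84, 0.201). Ccl5 lost it without any 1 of the 4 libraries, with adjusted p-values from 0.254 to 0.297. Ptgs2, cyclooxygenase-2, rose from 59.6 and 59.9 CPM to 75.9 and 72.9 CPM (0.32, SE 0.07, edgeR adjusted p = 0.0011). Vcam1, an adhesion molecule induced by NF-kB, fell by 0.37, and Lgals3, galectin-3, by 0.22.

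Adhesion genes were lower in part. Of 15 cadherin and junction genes 11 had a negative log2 fold change. Of 11 integrin genes 8 did, with 2 called lower and 1 higher. Over all genes 4.61% were called lower and 3.55% higher. Cdh1, which encodes E-cadherin, fell from 13.7 and 13.8 CPM to 5.61 and 6.85 CPM (-1.13, SE 0.18, edgeR adjusted p = 1.35e-06), one of 4 called lower among 15 cadherin and junction genes with 1 higher. Tjp1, a tight junction scaffold, fell by 0.25 and Pcdh1, a protocadherin, by 0.46. The integrin genes Itgb4, from 188.6 and 201.7 CPM to 134 and 135.8 CPM (-0.53, SE 0.05), and Itgb7, from 329.7 and 357 CPM to 256 and 258 CPM (-0.42, SE 0.05), fell. The other beta chain tested at a high level, Itgb1, did not pass (-0.10, adjusted p = 0.14). Of 14 mesenchymal transition genes 5 were called lower and 0 higher. Snai2, a repressor of Cdh1, was among them, at 28.4 and 30.9 CPM against 17.9 and 20.9 CPM (-0.60, SE 0.11), so that Cdh1 and its repressor were both lower. The mesenchymal count was 2 without ect replicate 1, 3 without ect replicate 2, 3 without knockdown replicate 2 and 1 in the fit of all 10 libraries. Tuba1a was the tubulin called, from 356 and 347 CPM to 242 and 260 CPM (-0.49, SE 0.05). Palld, an actin-bundling protein of focal adhesions, rose from 4.29 and 4.43 CPM to 8.45 and 8.51 CPM (0.96, SE 0.21). Among called genes of at least 5 CPM without overlap this was the largest rise. Predicted genes, pseudogenes and loci without a symbol were left aside.

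Of 21 chaperones and stress response genes of the endoplasmic reticulum, 6 fell and 1 rose (median -0.10). That is 33.3% of the list, beside 8.16% of all genes and 30.9% of the genes over 500 CPM, the level of Hspa5. Hspa5, the chaperone BiP, went from 1191 and 1163 CPM to 999.3 and 1010 CPM (-0.23, SE 0.04, edgeR adjusted p = 4.67e-06). Xbp1, a transcription factor of the unfolded protein response, went from 62.8 and 63.7 CPM to 48.0 and 45.6 CPM (-0.44, SE 0.08). Ern1, which encodes the sensor IRE1 that splices Xbp1 messenger RNA, rose from 38.3 and 41.1 CPM to 52.7 and 50.9 CPM (0.38, SE 0.09). Of 21 ATF4 response genes 4 fell, among them Chac1 (-0.37) and Atf5 (-0.36), and 0 were called in the fit of all 10 libraries. Of 18 p53 targets 0 passed. Cdkn1a had the smallest adjusted p among them (-0.29, adjusted p = 0.054).

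Growth-related genes did not move one way. Odc1, the first enzyme of polyamine synthesis, rose from 465 and 473 CPM to 595 and 611 CPM (0.36, SE 0.04, edgeR adjusted p = 1.27e-10). The noncoding host genes of small nucleolar RNAs Zfas1 (0.55, SE 0.08) and Gas5 (0.36, SE 0.05) also rose. Mki67, the proliferation antigen, fell from 1121 and 1188 CPM to 965 and 892 CPM (-0.32, SE 0.04). Of 24 replication genes 3 rose and 1 fell, of 22 mitosis genes 1 rose and 2 fell, and of 11 cyclins and their inhibitors 0 passed. Over all genes 3.55% were called higher and 4.61% lower. In the fit of all 10 libraries 0 replication genes were called, and DESeq2 called 1 of them higher. H1f0, the linker histone of cells that leave the cycle, fell from 906 and 868 CPM to 634 and 621 CPM (-0.50, SE 0.04, edgeR adjusted p = 9.61e-17). Of 38 nuclear oxidative phosphorylation genes 3 rose and 0 fell. This share, 7.89%, stands beside 3.55% of all genes called higher and 8.16% called in either direction. DESeq2 called 1 of the list higher. Ndufa4 was at 55.5 and 52.0 CPM against 73.1 and 71.2 CPM (0.42, SE 0.07). Among 26 antioxidant genes 4 rose and 4 fell. Aldh3a1, an aldehyde dehydrogenase, fell from 69.4 and 65.5 CPM to 42.1 and 39.0 CPM (-0.74, SE 0.08), and Txnrd1, thioredoxin reductase, rose from 245.5 and 253 CPM to 303 and 305 CPM (0.29, SE 0.05). Without knockdown replicate 2, 1 antioxidant gene was called higher.

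The remaining large differences were in genes outside these lists. Among called genes of at least 5 CPM without overlap Fam180a fell most, from 12.9 and 11.4 CPM to 2.49 and 5.59 CPM (-1.53, SE 0.22, edgeR adjusted p = 7.08e-07). Plin4, a coat protein of lipid droplets, fell from 48.2 and 57.1 CPM to 28.6 and 28.9 CPM (-0.87, SE 0.10). Tenm4, a teneurin of the cell surface, fell from 39.5 and 42.4 CPM to 22.4 and 22.5 CPM (-0.87, SE 0.10). The transcription factor genes Zfp423 (-1.01, SE 0.17) and Six5 (-0.81, SE 0.18), the calpain gene Capn6 (-0.97, SE 0.19) and the protease gene Prss23 (-0.79, SE 0.12) also fell. Sema5a, a guidance protein that binds heparan sulphate, fell by 0.64 and Gpnmb, a lysosomal and melanosomal glycoprotein, by 0.47. Among the rises, Nrn1, neuritin, went from 39.2 and 33.4 CPM to 51.1 and 57.0 CPM (0.58, SE 0.09), and Rap1gap, which turns off the GTPase Rap1, from 10.5 and 10.1 CPM to 15.8 and 15.5 CPM (0.61, SE 0.15). Znhit6, an assembly factor of nucleolar particles, rose by 0.60 and Enc1, an actin-binding protein, by 0.38.

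Calls under 5 CPM were large and depended on single libraries. The 5 largest rises there were Dlk2, Wnk3, Ccl5, Fam213a and Ralgps2, with fitted log2 fold changes from 1.67 to 2.34, and the 5 largest falls were Cdc42ep5, Tmem182, Epha8, Rab3il1 and Tspan32, from -2.48 to -1.07. Cdc42ep5, an effector of the GTPase CDC42, had 1.60 and 1.88 CPM in the knockdown and 0.178 and 0.399 CPM in the libraries labelled ect. Each of the 10 lost its call without at least 2 of the 4 libraries. Cdc42ep5 had an adjusted p of 0.0562 without knockdown replicate 2 and 0.0783 without ect replicate 1.

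The libraries labelled ect were last set against those labelled c30 ("with ect" and "with c30" below name the labels). It gave 45 called genes (0.299%), 25 higher (0.166%) and 20 lower (0.133%) in the libraries labelled ect. Sdc1 had the largest difference of the genes called lower (-2.03, SE 0.09, edgeR adjusted p = 5.29e-33). Both comparisons use the same ect libraries, and ect and c30 were set against the same knockdown libraries, so values are given side by side and no agreement is read from them. Without c30 replicate 1 the number called was 21, without c30 replicate 2 it was 18, and in the fit of all 10 libraries it was 8. DESeq2 called 19.

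Il1rl1, the receptor of interleukin-33, was lowest with ect, at 44.8 and 47.8 CPM against 76.7 and 72.2 CPM in the knockdown and 68.3 and 63.1 CPM with c30. It differed from the knockdown by -0.68 (SE 0.07, edgeR adjusted p = 2.32e-11) and from c30 by -0.50 (SE 0.08, adjusted p = 1.41e-05), and it kept its call without any 1 library. L1cam, a neural adhesion molecule, had 104 and 108.5 CPM in the knockdown, 86.2 and 89.8 CPM with ect and 117 and 107 CPM with c30. Its direct difference was -0.35 (SE 0.06, adjusted p = 0.000298), and -0.28 without c30 replicate 1, where it did not pass (0.224). Eps8, an adaptor of EGF receptor signalling, had 399.4 and 398.6 CPM with ect and at least 451 CPM in each of the other 4 libraries. Its direct difference was -0.20 (adjusted p = 0.00841) and did not pass without any 1 of the 4 libraries (adjusted p-values of 0.0981 and 0.118 without ect replicates 1 and 2, and 0.328 and 0.192 without c30 replicates 1 and 2).

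Genes induced by interferon or inflammation were among the 25 called higher with ect than with c30. Gbp4 was at 85.2 and 81.7 CPM with c30, about the knockdown level, and ect minus c30 was 0.36 (SE 0.06, edgeR adjusted p = 0.000129); without c30 replicate 2 it was 0.34 (adjusted p = 0.0558). Ptgs2 had 59.3 and 55.3 CPM with c30 and a direct difference of 0.38 (adjusted p = 0.00199); without c30 replicate 2 it was 0.33 (0.179). Iigp1 showed another order: 620.2 and 597 CPM in the knockdown, 504 and 519 CPM with ect and 435 and 448 CPM with c30. Ect was thus below the knockdown (-0.25, SE 0.04) and above c30 (0.21, SE 0.04, adjusted p = 0.00326), and the latter did not pass without ect replicate 2 (0.119), c30 replicate 1 (0.328) or c30 replicate 2 (0.119). Apol9b and Krt14 had the same order of the 3 groups. With DESeq2 their ect minus c30 differences did not pass (0.33, adjusted p = 0.077, and 0.32, adjusted p = 0.0729).

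Further genes were called in the direct comparison, while ect minus knockdown did not pass. Whether these 2 differences differ is not a separate test, since both share the ect libraries. For Egr1, Cd74 and Cxcl10 both c30 libraries also lay below both knockdown libraries. The test of c30 minus knockdown is not given for these genes, and a direct call alone does not show which group moved. The calls are therefore not read as particular to ect. Egr1, an immediate early factor, had 17.3 and 20.2 CPM in the knockdown, 20.2 and 22.9 CPM with ect and 10.06 and 10.1 CPM with c30 (ect minus c30 1.10, SE 0.14, edgeR adjusted p = 9.23e-08), and it kept this call without any 1 library. Cd74, whose product escorts MHC class II molecules, had 12.06 and 14.04 CPM in the knockdown, 11.2 and 10.8 CPM with ect and 6.12 and 6.60 CPM with c30 (0.79, SE 0.18, adjusted p = 0.021). Cxcl10, a chemokine for T cells, had 21.1 and 23.6 CPM, 28.3 and 26.9 CPM, and 18.7 and 19.8 CPM in the same order (0.52, adjusted p = 0.0161). Cd74 and Cxcl10 did not pass without any 1 of the 4 libraries, with adjusted p-values from 0.0758 to 0.328 and from 0.0518 to 0.328. The complement gene C4b (0.62, adjusted p = 0.00303) and the serpin gene Serpina3f (0.58, adjusted p = 0.00199) were also higher with ect than with c30. In c30 minus knockdown 3 of 10 complement genes were called lower and 1 higher (median -0.67), and 4 of 12 serpins lower and 0 higher (-0.35). In ect minus knockdown 1 of each list was called lower and 0 higher. These direct differences are therefore not read as a rise with ect. C4b did not pass without c30 replicate 1 (0.54, 0.261), nor Serpina3f without ect replicate 2 (0.53, 0.0576) or c30 replicate 2 (0.56, 0.111).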

How the data were processed

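Messenger RNA of MC38 cells was sequenced in pairs of reads on a HiSeq instrument, per the labels' protocols. The deposited table holds raw counts per gene made by the authors. The submitters' processing notes name Trimmomatic, HISAT2 (2.0.5), HTSeq, featureCounts, DESeq2 and the build GRCm39, with no roles or order. The sources used here do not state whether counting used the strand. Counts were tested as deposited.

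The 6 MC38 libraries (2 per group) were fitted together with edgeR 4.0.16 (R 4.3.3): filterByExpr, TMM scaling and the robust quasi-likelihood test, with Benjamini-Hochberg adjustment over all 15031 genes tested and a threshold of 0.05. In simulated counts of 15031 genes for ect minus knockdown, changed genes were drawn from those over 5 CPM alone, 50 at each fold. Of those changed 1.2-fold 30% were recovered, and of those changed 1.5-fold 92%. Falsely called were 12 genes. Recovery under 5 CPM was not simulated. Symbols were matched for 51884 of 57180 Ensembl identifiers. The row without a symbol described with the depths was kept. Alternatives were DESeq2 1.42.0, limma-voom (limma 3.58.1), other filters and scaling, the 10 libraries of both cell lines, the 4 libraries compared, a replicate block, and each library left out.

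The comparison, the gene lists and the alternatives were chosen with earlier results of these data known. Genes named are Sdc1 and, among called genes without overlap at 5 CPM or more, the 20 largest rises and 20 largest falls. Predicted genes, pseudogenes and loci without a symbol were left out. Also named are the 10 smallest adjusted p-values in each direction and 5 called genes in each direction under 5 CPM. Up to 5 called members of a list in each direction and members that describe a list are named too. Against c30, up to 10 in each direction called in both comparisons are named. Further lipid, lysosomal and hypoxia genes were added after their values were seen. So were the genes called in ect minus c30 but not in ect minus knockdown. Promoter sequences are from RefSeq (GRCm38.p6), a different build from that of the counts, and were matched by symbol alone. Some members of the lists are counted but not reported here by name.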

Additional observations from a re-analysis of the deposited data

Results flagged for a closer look

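For 3 features the ect and c30 libraries lay on opposite sides of the same 2 knockdown libraries, and the direct difference between ect and c30 passed the edgeR test. Rps27a is a ribosomal protein gene with many near-identical copies among which reads can be split. It had an ect minus c30 log2 fold change of 1.007. Its levels were 291.6 and 285.7 CPM in the knockdown, 411.9 and 411.8 CPM with ect and 191.9 and 217.9 CPM with c30. In the edgeR fit of all 10 libraries Rps27a did not pass against c30 (1.01, adjusted p = 0.869) or against the knockdown (0.51, adjusted p = 0.48). The pseudogene Gm8430 had -1.291, with 31.2 and 20.6 CPM in the knockdown, 15.8 and 14.4 CPM with ect and 37.8 and 36.0 CPM with c30. XLOC_000041, a locus without a symbol, had -1.312, with 33.7 and 24.5 CPM in the knockdown, 18.1 and 22.6 CPM with ect and 55.5 and 46.4 CPM with c30.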

How the results depend on the processing

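Against the knockdown, 1227 genes were called (534 higher, 693 lower). The fit of all 10 libraries called 249 (65 higher, 184 lower), DESeq2 600 (241 higher, 359 lower), and a required 2-fold difference 43 (24 higher, 19 lower). Leaving out each library in turn gave 776 to 984 genes, of which 311 to 401 were higher. Against c30, 45 genes were called (25 higher, 20 lower), 8 in the fit of all 10 libraries (5 higher, 3 lower), 72 in a fit of the 4 libraries compared alone (38 higher, 34 lower), 19 with DESeq2 (7 higher, 12 lower) and 7 at 2-fold (4 higher, 3 lower). Leaving out each library gave 18 to 44 genes, 8 to 23 higher and 10 to 21 lower. The cause of these differences was not tested, apart from the fewer samples in fits that leave one out. The replicate numbers did not pair the samples (correlations of deviations from -0.0125 to 0.00924 over 2 numbers); with the replicate block 1252 genes were called against the knockdown and 55 against c30. Of the 228 genes named for the first comparison, 114 kept their call or lack of it in the fit of all 10 libraries. With DESeq2 154 kept it, 39 lost their call and the others had no adjusted p. In these fits and with a library left out 0 changed direction. Low counts limit what could be called under 5 CPM.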

Other observations

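Large differences that did not pass had uneven samples within a group. Lars2 had 869.9 and 619.2 CPM in the knockdown and 1675 and 1039 CPM in the libraries labelled ect (log2 fold change 0.86, not called). Rps27rt had 13.2 and 18.2 CPM against 89.7 and 31.6 CPM (edgeR adjusted p = 0.505).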
